A study of Mus musculus with 3 samples.

Results

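The 10 genes described here encode members of activator protein 1 (AP-1). They were taken by symbol from 55536 GENCODE genes in the deposited gene tables, of which 22028 are protein coding, and all of them were found there. Fos, Fosb, Fosl1 and Fosl2 make up the FOS family (4 genes), Jun, Junb and Jund the JUN family (3 genes), and Atf3, Batf and Batf2 are the ATF and BATF members (3 genes). AP-1 proteins carry a basic leucine zipper, a segment that holds a pair of proteins together and grips DNA. JUN proteins can pair with each other, whereas FOS and BATF proteins depend on a JUN partner, and Atf3 acts mostly as a repressor. In macrophages, Fos and Jun are textbook immediate early genes of the response to bacterial products, Atf3 restrains inflammatory cytokine genes, and Batf proteins bind DNA beside interferon regulatory factors.

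The series holds polyadenylated RNA from 3 libraries of 1 group, labelled as biological replicates 1, 2 and 3. The cells were macrophages grown from bone marrow of the inbred mouse strain C57BL/6J, with no further allele named and with sex and age not recorded. Each culture received 100 ng/ml lipid A for 12 h, was washed out for 12 h and received 100 ng/ml lipid A again for 180 min. The receptor TLR4 senses lipid A, the lipid end of bacterial lipopolysaccharide; other fields of the labels name the agent lipoprotein A and class it as a protein, and this difference cannot be settled from the files. All 3 libraries name the same donor record, so the SDs below describe the spread between these libraries, which may be technical. No resting or singly exposed cells were analysed here, so each value is a level after the second exposure and carries no direction of response.

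Replicate 1 held 23418690 expected counts, replicate 2 held 36863611 and replicate 3 held 37728915. All 12 macrophage markers listed, among them Adgre1 and Lyz2, reached a level of 1 TPM (reads per transcript length, scaled to an equal total per library) in every library. None of the T and NK cell, dendritic cell, mast cell, stromal or erythroid and megakaryocyte markers did, beside 1 of 5 B cell markers (Cd79b) and 2 of 4 endothelial markers (Pecam1 and Kdr). The summed TPM of 8 neutrophil markers was 12.5, 108 and 11.1 in replicates 1, 2 and 3; S100a8 and S100a9 alone reached 1 TPM in all libraries, and Ly6g had 0 counts. Replicate 2 was also the highest in the summed TPM of T and NK cell markers (0, 2.28 and 0.03), B cell markers (1.93, 4.39 and 1.78) and erythroid and megakaryocyte markers (0.94, 2.69 and 0.77). It thus stood apart in the summed TPM of these lists, most of all the neutrophil list. It was also the library with the most Fos.

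The stretches of DNA around the start sites of Fos, Jun, Atf3 and Batf are shown because each holds a match to a sequence that ATF or AP-1 proteins are known to bind, and because these genes span most of the range of levels. Each runs from 250 bases before to 50 bases after the RefSeq start site (build GRCm38.p6), 5′ to 3′ on the gene's strand. Capitals mark matches to TGACGT, the core of the cyclic AMP response element, to TGACATCA, a variant of it to which pairs of JUN and ATF2 bind, to the TATA element TATAAA, and to the kappaB site bound by NF-kappaB. A match on the opposite strand reads as its reverse complement, so TGACGT appears as ACGTCA in Atf3.
Fos, chr12:85473640-85473939, plus strand: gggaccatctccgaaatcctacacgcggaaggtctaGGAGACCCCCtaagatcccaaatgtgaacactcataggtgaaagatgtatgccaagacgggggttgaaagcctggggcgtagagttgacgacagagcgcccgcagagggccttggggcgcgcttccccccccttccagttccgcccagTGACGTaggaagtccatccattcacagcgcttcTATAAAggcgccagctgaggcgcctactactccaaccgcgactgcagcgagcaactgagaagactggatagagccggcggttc
Jun, chr4:95052173-95052472, minus strand: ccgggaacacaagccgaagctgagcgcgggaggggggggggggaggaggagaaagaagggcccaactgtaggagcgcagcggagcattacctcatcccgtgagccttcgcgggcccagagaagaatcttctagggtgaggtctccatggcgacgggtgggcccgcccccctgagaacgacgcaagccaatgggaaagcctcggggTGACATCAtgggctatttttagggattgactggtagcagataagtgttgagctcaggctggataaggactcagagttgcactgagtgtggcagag
Atf3, chr1:191183284-191183583, minus strand: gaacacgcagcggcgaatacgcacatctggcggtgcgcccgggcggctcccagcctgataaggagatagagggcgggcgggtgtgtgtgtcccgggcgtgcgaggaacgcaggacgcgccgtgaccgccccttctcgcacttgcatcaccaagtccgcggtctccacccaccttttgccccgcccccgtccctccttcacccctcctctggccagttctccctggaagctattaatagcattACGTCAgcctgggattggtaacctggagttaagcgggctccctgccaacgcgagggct
Batf, chr12:85686470-85686769, plus strand: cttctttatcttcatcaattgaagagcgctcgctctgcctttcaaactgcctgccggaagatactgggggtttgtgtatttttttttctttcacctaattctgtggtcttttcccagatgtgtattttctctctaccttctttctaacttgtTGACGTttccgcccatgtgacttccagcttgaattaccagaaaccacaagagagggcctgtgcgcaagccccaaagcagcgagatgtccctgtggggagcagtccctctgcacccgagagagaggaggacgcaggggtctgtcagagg

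Counted with the start site as base 0, Fos held TGACGT at -66 to -61 ahead of TATAAA at -33 to -28, and a kappaB match at -214 to -205 on the opposite strand. Jun held TGACATCA at -45 to -38. In Batf, TGACGT lay at -98 to -93, and in Atf3 it lay at -8 to -3 on the opposite strand. On both strands, TGACGT occurs in 7.51%, TGACATCA in 3.62%, TATAAA in 13.6% and a kappaB match in 8.46% of 32851 RefSeq promoters of this length. Of the members, 8 had an entry in that table (all but Fosl1 and Batf2). Matches to the kappaB site also stood in Fosb and Fosl2, Junb had TATAAA at 0 to 5, and Fosl2 had the interferon response pattern found in 3.44% of promoters. None of the 8 windows held TGANTCA, the AP-1 site itself (7.81% of promoters), the full TGACGTCA (1.79%), a CArG box for serum response factor (1.63%) or the STAT pattern TTCNNNGAA (8.30%). The windows end 250 bases before the start site. Sites further upstream were not searched, so no gene can be said to lack these elements. The common elements CCAAT (37.4% of promoters) and GGGCGG (35.7%) were also searched for and are not capitalised. The search for TGACGT was added after the sequences had been seen, and the RefSeq start of Jund lies 1210 bases and that of Fosl2 671 bases from the start of the transcript used here, so those windows describe another start site. Smaller offsets hold for Batf (51 bases), Junb (30 bases) and Atf3 (7 bases), so their positions depend on the start chosen. TATAAA in Junb lies ahead of the start of the transcript used here.

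Levels are given in TPM, which divides reads by transcript length and so can be compared between genes. Of the 10 members, 8 were at 1 TPM or more in all 3 libraries; over all protein-coding genes this share was 44.3%. The median member stood at 5.83 ± 0.23 on the log2(TPM + 1) scale (SD, n = 3), against 0.40 ± 0.029 for the median protein-coding gene. From highest to lowest mean the order was Atf3, Batf, Junb, Jund, Batf2, Jun, Fos, Fosl2, Fosl1 and Fosb. Of the 9 neighbouring pairs in that order, 7 had TPM ranges that did not overlap between the 3 libraries, and these pairs kept the order in all of them. Atf3 with Batf, and Fosl1 with Fosb, overlapped and cannot be ordered from these tables.

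**Figure D1:**
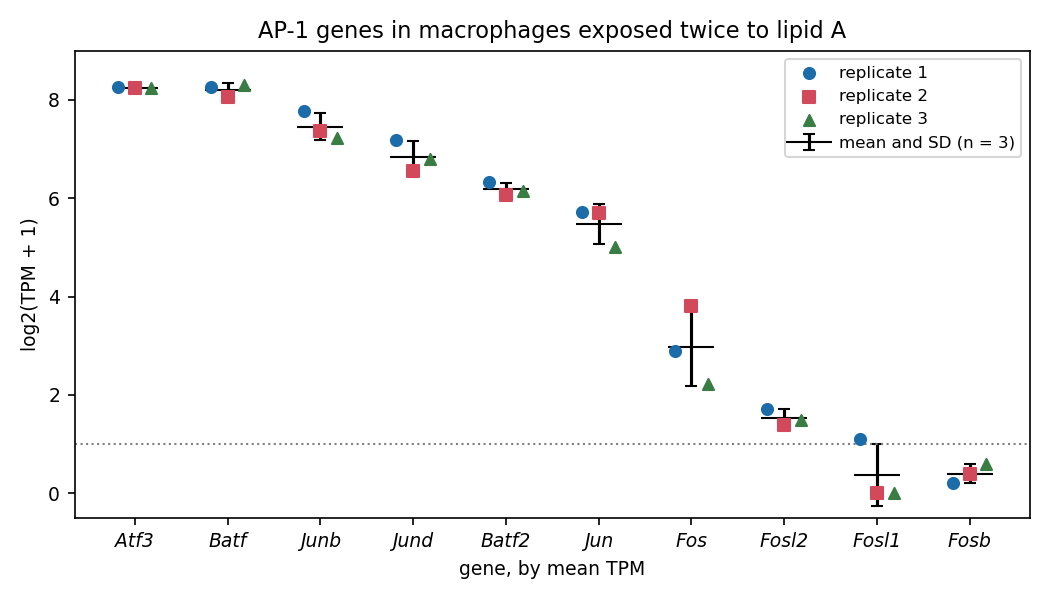
The y axis gives log2(TPM + 1) of the 10 AP-1 genes, ordered by mean TPM along the x axis, with 1 symbol per replicate, a bar at the mean and an SD whisker (n = 3), and a dotted line at 1 TPM. In these gene tables Atf3 spans 300.72 to 307.57 TPM (264 to 308 in the FASTQ tables), Fos spreads from 3.64 to 13.07 TPM, and Fosl1 and Fosb lie near the bottom.

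Among the ATF and BATF members, Atf3 and Batf were the most abundant AP-1 transcripts, and Atf3 had the smallest spread of the members in the gene tables. Atf3 (ENSMUSG00000026628.13, chr1:191170296-191218039, minus strand), which codes for a stress-induced factor, was at 307.57, 301.87 and 300.72 TPM in replicates 1, 2 and 3. Its mean was 303 ± 3.67 TPM, a coefficient of variation of 1.21%, and it ranked 477 of the 22028 protein-coding genes. That narrow spread was not shared by the second kind of table, which the authors made from FASTQ files, with 264, 270 and 308 TPM (281 ± 23.8). Batf (ENSMUSG00000034266.6, chr12:85686669-85709087, plus strand), which codes for a zipper protein without an activation domain, was at 307.61, 266.56 and 313.47 TPM, or 296 ± 25.6, rank 490. The ranges of both genes overlapped in the gene tables, with replicate 2 the lowest for Batf, whereas in the FASTQ tables Batf, at 207, 220 and 292 TPM, was below Atf3 in all 3 libraries.

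Batf2 (ENSMUSG00000039699.14, chr19:6140983-6172476, plus strand) is known to be induced in classically activated macrophages, where its protein works with IRF1. It was at 79.53, 65.91 and 69.91 TPM, or 71.8 ± 7.0. Within a library, the log2 ratio of Batf2 to Batf was -2.04 ± 0.11, which is 4.12-fold less Batf2, and all libraries lay close together. Batf3, a related gene known for its need in conventional dendritic cells, was counted among the zipper partners and had 4.17, 8.35 and 4.39 TPM. The log2 ratio of Batf to Batf3 was 5.79 ± 0.68. Jdp2, the closest relative of Atf3, was at 63.2 ± 5.90 TPM, and the log2 ratio of Atf3 to Jdp2 was 2.27 ± 0.13. BATF proteins are known to bind with IRF4 or IRF8 at composite sites. Irf8 was at 80.12, 89.95 and 91.59 TPM, whereas Irf4 was at 0.52, 0.68 and 0.29 TPM and reached 1 TPM in no library.

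In the JUN family, Junb and Jund stood above Jun in every library. Junb (ENSMUSG00000052837.6, chr8:84974484-84978718, minus strand), a JUN protein with weaker activation than Jun on many sites, was at 216.49, 164.92 and 148.95 TPM, or 177 ± 35.3. Jund (ENSMUSG00000071076.6, chr8:70698949-70700616, plus strand), the broadly expressed member, was at 143.64, 92.32 and 110.41 TPM, or 115 ± 26. Jun (ENSMUSG00000052684.4, chr4:95049034-95052222, minus strand), which codes for the founding partner of Fos, was at 51.83, 50.70 and 31.10 TPM, or 44.5 ± 11.7. Replicate 1 was the highest for each of these genes, and the lowest was replicate 3 for Jun and Junb and replicate 2 for Jund. The log2 ratio of Junb to Jun was 2.01 ± 0.28, or 4.02-fold, that of Jun to Jund was -1.39 ± 0.49, and that of Junb to Jund was 0.62 ± 0.20.

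The JUN family values carry a limit from gene overlap, since the sources used here do not say whether counting used strand. Of the 31-base stretches of Jund transcripts, 50.1% also occur in Gm11175, an antisense gene on the opposite strand, which was given 12.25, 0 and 0 TPM. In the gene tables Jund was highest in the replicate in which Gm11175 received reads. In the FASTQ tables Jund was instead highest in replicate 3, at 138 TPM against 122 in replicate 1. Shared stretches made up 6.51% in Junb, with Prdx2 on the opposite strand, a peroxiredoxin gene at 138.87, 144.33 and 157.29 TPM, and 6.39% in Jun, with the antisense gene Junos at 1.11, 0.53 and 0.09 TPM. Whether such reads moved between the genes was not tested.

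FOS family transcripts were scarce. Fos (ENSMUSG00000021250.13, chr12:85473890-85477273, plus strand) was at 6.46, 13.07 and 3.64 TPM, or 7.72 ± 4.84, from 182, 615 and 163 counts. Fosl2 (ENSMUSG00000029135.10, chr5:32135801-32157842, plus strand), which codes for the Fos-related antigen Fra-2, was at 2.30, 1.60 and 1.82 TPM, or 1.91 ± 0.358. Fos was above Fosl2 in every library, with a log2 ratio of Fosl2 to Fos of -1.84 ± 1.06; that spread followed Fos, which was highest in replicate 2 and lowest in replicate 3. Fosb (ENSMUSG00000003545.3, chr7:19302696-19310051, minus strand) was at 0.15, 0.32 and 0.50 TPM from 8, 27 and 29 counts. Fosl1 (ENSMUSG00000024912.6, chr19:5447547-5455946, plus strand), which codes for Fra-1, was at 1.14 TPM from 4 counts in replicate 1 and had 0 counts in the other libraries. A floor of 3 counts applies where none was seen, which is 0.0815 CPM (counts scaled to library depth, here without the library scaling factors used below) in replicate 2 and 0.0796 CPM in replicate 3, and the two-sided 95% exact Poisson interval with those factors reaches 0.0976 and 0.0987 CPM. The 1.14 TPM of Fosl1 came mainly from Fosl1-203, an annotated transcript of 357 bases given 93.0% of it, and 54.5% of the 31-base stretches of Fosl1 also occur in Ccdc85b on the opposite strand. Detection of Fosl1 therefore rested on 1 library and 4 counts.

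Summed over its members, the FOS family had 10.05, 14.99 and 5.96 TPM, the JUN family 411.96, 307.94 and 290.46, and the ATF and BATF members 694.71, 634.34 and 684.1. These sums do not overlap, and they kept their order in all 3 libraries. The ATF and BATF members held 66.1 ± 3.78% of the summed AP-1 TPM, the JUN family 32.9 ± 3.69% and the FOS family 1.02 ± 0.491% (SD, n = 3). Atf3 took 29.9 ± 2.10%, Batf 29.1 ± 2.47%, Junb 17.3 ± 2.10% and Jund 11.3 ± 1.61%, followed by Batf2 with 7.05 ± 0.139% and Jun with 4.37 ± 1.09%. Fos, the member with which AP-1 is most often named, took 0.772 ± 0.524%. Atf3, Batf and Junb together held 76.3 ± 1.70%.

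**Figure D2:**
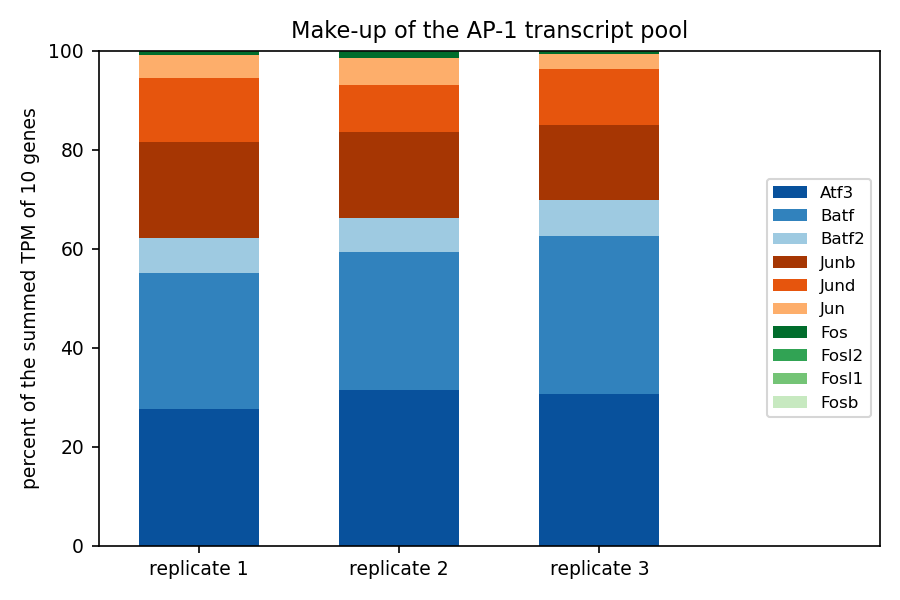
Stacked bars give the percent of the summed TPM of the 10 AP-1 genes held by each gene (y axis, 0 to 100) in replicates 1, 2 and 3 (x axis). Blue bars (ATF and BATF members) fill 62.2, 66.3 and 69.8% of the pool, orange bars (JUN family) fill most of the rest, and the green FOS family bars are a thin cap.

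Of the 12 ratios between genes or families, 11 could be formed in every library, and each of these had the same sign in all 3. The log2 ratio of the FOS family to the JUN family was -5.36, -4.36 and -5.61, a mean of -5.11 ± 0.66 or 34.5-fold less FOS. The log2 ratio of Atf3 to Fos was 5.49 ± 0.92, and that of Fos to Fosb was 4.55 ± 1.46. Atf3 exceeded Junb by 0.80 ± 0.26. The remaining ratio, Fosl2 to Fosl1, existed only in replicate 1, at 1.01. A two-sided exact sign-flip test over 3 libraries cannot give a p below 0.25, so these ratios are given with their spread and no call. They compare levels of RNA, and protein amounts were not measured.

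**Figure D3:**
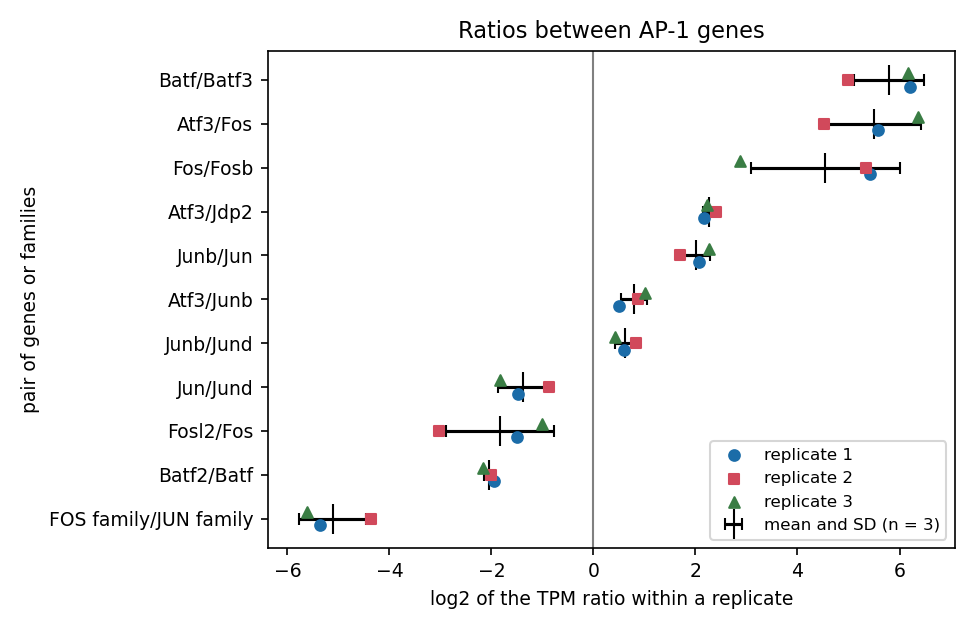
The x axis gives the log2 TPM ratio within a library for 11 pairs of genes or families (y axis), with 1 symbol per replicate and the mean with its SD (n = 3). No pair crosses the line at 0; the ratios that contain Fos have the widest whiskers, and the ratio of Batf2 to Batf, at -2.04 ± 0.11, has the narrowest.

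Fos varied more between libraries than the 7 other members with at least 1 CPM. For this comparison counts were scaled to CPM with edgeR's trimmed mean of M-values, and a gene was counted where its highest library was at least 2 times its lowest. Fos had 7.93 CPM in replicate 1 (95% exact Poisson interval 6.82 to 9.17), 16.3 in replicate 2 (15.01 to 17.6) and 4.36 in replicate 3 (3.72 to 5.08), a 3.73-fold range. These intervals, which cover counting error only, do not overlap. Among the 8 members with a mean of at least 1 CPM, Fos was the 1 gene that passed 2-fold, beside 9.35% of 11026 genes at that level. Among the 2970 genes within 2-fold of the mean CPM of Fos, a band chosen after its value was seen, 8.45% passed, and 39 genes, or 1.31%, had a range as wide as that of Fos. Fos is already the widest of the 8 members, so the 1.31% describes its rank and is no test. The median range was 1.40-fold for the 8 members and 1.27-fold for all 11026 genes.

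The library with the most Fos had the highest summed TPM of the neutrophil list and of the other blood cell lists given above. S100a8 was at 6.84, 39.35 and 5.36 TPM and S100a9 at 4.2, 57.97 and 5.10 in replicates 1, 2 and 3. Ngp, a neutrophil granule gene, was at 0.39, 7.78 and 0.28 TPM, and Ltf at 0.14, 1.73 and 0. Other markers of this list did not stand out in replicate 2. Mpo was at 0.17, 0.18 and 0 TPM, Camp at 0.76, 0.97 and 0.24, and Elane at 0, 0 and 0.11. Ly6g had 0 counts. Fos differed 1.82-fold between replicates 1 and 3, in which the neutrophil sum was nearly equal, and none of the 8 members passed 2-fold once replicate 2 was left out. The part of neutrophils or other blood cells in the Fos level was not tested. In bulk RNA, fewer cells that express a gene and less RNA per cell cannot be told apart.

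In the CPM of the gene tables, most other immediate early genes did not share the order of Fos. Of 19 listed, 17 had a mean of at least 1 CPM and 10 of these had a 2-fold range, against the 9.35% of all genes above. Several of these 10 had low counts, with as few as 25 in a library. Genes of like level were not set beside them. Of the 17, replicate 1 was the highest library for 12, replicate 2 for 2 and replicate 3 for 3, beside 35.2, 32.4 and 32.4% of all genes at that level. For the AP-1 members the highest replicate depended on the kind of table, as given below. The FASTQ tables were not used for this list. Only Zfp36, which codes for a protein that destabilises AU-rich messages, and Btg2, an antiproliferative gene, were highest in replicate 2 and lowest in replicate 3 as Fos was. Egr1, the zinc finger gene most often induced with Fos, had 54.9, 38.5 and 85.2 CPM and was lowest where Fos was highest. The most abundant genes of the list were Gadd45b at 467 ± 32.0, Klf6 at 292 ± 28 and Zfp36 at 82.8 ± 22.4 TPM. Of the 19, 12 were at 1 TPM in all libraries, beside 44.3% of protein-coding genes. Their median was 2.87 ± 0.39 on the log2(TPM + 1) scale over all 19.

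**Figure D4:**
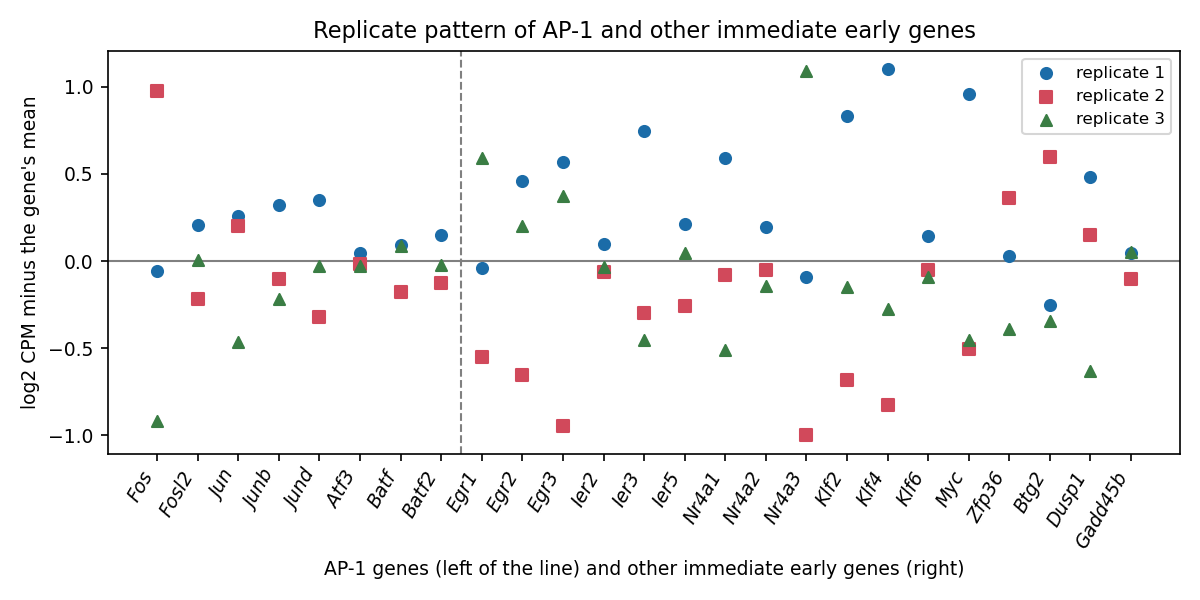
The y axis gives log2 CPM minus the gene's mean for 8 AP-1 genes (left of the dashed line) and 17 other immediate early genes (right), with 1 symbol per replicate. Fos is highest in replicate 2 and lowest in replicate 3, whereas replicate 1 is the highest for the other 7 AP-1 genes and for 12 of the 17 other genes.

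Replicate 1, the shallowest library, was the highest for 7 of the 8 members in CPM and for 6 in TPM, and for 34.4% of all genes in TPM. In the FASTQ tables, a comparison added after the values were seen, replicate 1 was the highest for 1 of the 8 members and for 10.8% of genes, and replicate 3 for 5 members and 60.4% of genes. Junb, at 216.49, 164.92 and 148.95 TPM in the gene tables, was at 146, 138 and 141 TPM in the FASTQ tables, so its range shrank from 1.45-fold to 1.05-fold. Jun was at 34.4, 44.8 and 30.9 TPM there, with replicate 2 on top, and Jund at 122, 103 and 138 TPM. Fos kept its order, at 4.76, 10.9 and 3.19 TPM. In TPM, the highest replicate was the same in both kinds of table for Fos, Junb and Batf and another one for the other 5 members. Why the tables differ was not tested.

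Mean levels differed less between the tables. The mean FASTQ values were 281 ± 23.8 TPM for Atf3, 240 ± 46.0 for Batf, 142 ± 3.87 for Junb and 121 ± 17.6 for Jund. The median protein-coding gene was lower by 0.22 (log2) in the FASTQ tables, at -0.22 over 9582 genes. Against that shift, Jund at 0.063 and Atf3 at -0.11 lay higher, and Junb at -0.32, Batf at -0.30, Fos at -0.30 and Jun at -0.28 lay lower.

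At the level of transcripts, the 10 genes have 33 annotated ones, and in most members 1 coding transcript held nearly all of the TPM. Jun, Junb and Jund each had 100% in Jun-201, Junb-201 and Jund-201. Batf-201 held 99.1 ± 0.202% of Batf and Fos-201 held 95.1 ± 3.66% of Fos in the alignment tables. These genes also have simple models. Jun, Junb and Jund consist of a single exon in the transcript used here, as do 2.09% of 9728 expressed protein-coding genes, and the other members have 3 or 4 exons.

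Of the 8 members at 1 TPM or more in all libraries, Batf2 had the most divided output. Batf2-201, its main coding transcript, held 75.4 ± 3.66% in the alignment tables and 71.1 ± 4.45% in the FASTQ tables. Transcripts annotated as non-coding (retained introns and processed transcripts) held 18.4 ± 3.11% and 23.6 ± 4.10%, and of these Batf2-204, a retained intron, had 8.97 ± 1.62% and 10.6 ± 1.84%. The non-coding share of Batf2 was present in all 3 libraries and in both kinds of table. Atf3 depended on the table. Atf3-202, a processed transcript of 517 bases, had 0, 0.398 and 3.58% of Atf3 in the alignment tables and 27.7, 8.54 and 13.7% in the FASTQ tables, and Atf3-201, the coding one, had 98.7 ± 1.96% and 83.3 ± 9.85%. Fosl2-203, a retained intron, went from 3.48 ± 6.02% to 17.9 ± 15.9%, at under 1 TPM. For Fosb, with 8 to 29 counts spread over 7 annotated transcripts, no share could be resolved. The transcripts with 10% or more in a table were Fosb-205, Fosb-207, Fosb-206 and, in the FASTQ tables, Fosb-201.

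**Figure D5:**
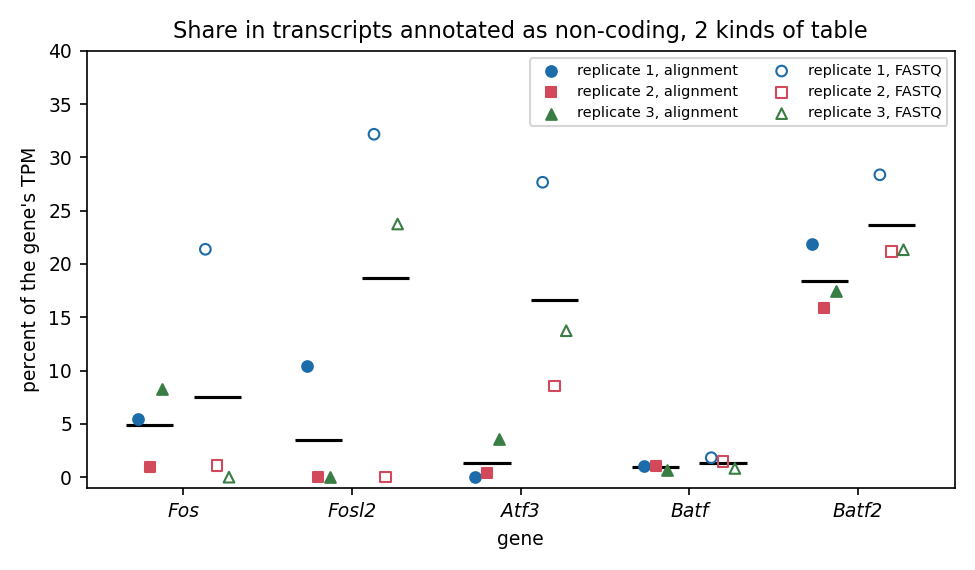
For 5 AP-1 genes (x axis), the y axis gives how much of the TPM lay in transcripts annotated as non-coding, in percent, with filled symbols for the alignment tables, open symbols for the FASTQ tables, and a bar at each mean of 3 replicates. Batf2 lies between 15.9 and 28.4% in both kinds of table, whereas Atf3 lies at 3.58% or less in the first and between 8.54 and 27.7% in the second.

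Messages of immediate early genes are known for AU-rich elements in the 3′ untranslated region, which hold the pentamer ATTTA and speed decay. Fos had 4 of them in 815 bases, or 4.91 per kb, Junb had 2 (4.12 per kb), Jun had 4 (3.24 per kb) and Atf3 had 3 (2.53 per kb). Over 9643 expressed protein-coding genes the median was 1.26 per kb, and 7.11% had 5 or more per kb, a density that no member reached. Batf and Batf2 had none. Fosl2 had 8 in a far longer region of 4653 bases (1.72 per kb), and Fos and Fosl2 each held the nonamer TTATTTATT, present in 6.70% of genes. Jund, Fosb and Fosl1 had 1 pentamer each. Each count is for 1 coding transcript per gene, which was Fosb-207 for Fosb and Fosl1-201 for Fosl1. No share of Fosb could be resolved, and the TPM of Fosl1 lay mainly in Fosl1-203. The members thus differed from each other in this feature, and Atf3 and Batf, the most abundant members, stood at 3 and 0 pentamers. RNA decay was not measured.

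Most listed genes that surround AP-1 in its pathway reached 1 TPM, beside 44.3% of all protein-coding genes in all 3 libraries. The lists were chosen with earlier results known, so the counts here and in the next paragraph describe the lists only. Of the listed basic leucine zipper partners, 34 of 35 were matched, 29 reached 1 TPM in all libraries, and their median was 4.36 ± 0.034 on the log2(TPM + 1) scale. Nfe2l2, the oxidative stress factor NRF2, was at 204 ± 9.42 TPM, Nfe2l1 at 176 ± 31.1 and Atf4, the factor of the integrated stress response, at 163 ± 53.2, and Nrl and Hlf had 0 counts. In mean TPM, the 3 most abundant partners lay above Jund. Of 16 genes of the MAP kinase cascades that phosphorylate AP-1 proteins, 15 reached 1 TPM, with Mapkapk2, a kinase downstream of p38, at 416 ± 77.3 TPM, Mapk3 (ERK1) at 89.95 ± 8.22 and Map2k1 (MEK1) at 89.9 ± 10.7. Mapk10, a JNK gene known from neurons, had 0 counts.

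All 7 listed genes of the SRF, ternary complex factor and MEF2 group, which regulate Fos and Jun transcription, reached 1 TPM. The highest means were those of Mef2a at 39.4 ± 4.96, Elk3 at 27.6 ± 2.68 and Mef2d at 24.2 ± 3.86 TPM. The median of the group was 4.16 ± 0.053 on the log2(TPM + 1) scale. Mef2c, named here after its values were seen, was the 1 gene of the group with a 2-fold range in CPM (2.11-fold). Its TPM values of 9.44, 13.52 and 9.45 did not reach a 2-fold range. Replicate 2 was its highest library in CPM and in TPM. All 4 ubiquitin ligase genes that mark JUN proteins for breakdown were also present, with Cop1 at 70.2 ± 1.67, Itch at 20.6 ± 1.19 and Fbxw7 at 5.36 ± 0.748 TPM. Of 10 genes known as AP-1 targets in various cells, 8 reached 1 TPM, beside the same 44.3% of protein-coding genes. Spp1, the secreted protein osteopontin, was at 1433 ± 387 TPM, Hmox1, which breaks down haem, at 242 ± 44.2, and Cd44, an adhesion receptor, at 204 ± 79.3. No factor binding was measured, so these are levels of listed genes and not evidence of AP-1 action on them.

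The protein-coding genes with the levels most like those of a member were found by the Euclidean distance of log2(TPM + 1) over the 3 libraries. Fos had few near neighbours. The closest was Trib1, which codes for a pseudokinase, at a distance of 0.489 with 4.67, 14.04 and 4.60 TPM, followed by Zfp950 at 0.570 and Tmem51 at 0.583, and 1 gene lay within 0.5. Around Jun, 124 genes lay within 0.5, among the closest Zfp36l2 at 0.124 and Smim15 at 0.230. Around Atf3 there were 150, led by Hnrnpk at 0.108, Oaz1 at 0.114 and Tap1 at 0.120. With 3 libraries such a distance mainly compares levels and describes no shared control.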

How the data were processed

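Polyadenylated RNA of 3 libraries (1 group, replicate numbers from the labels) was taken from the authors' quantification tables. Per the labels and file lists, the build is mm10 and the annotation M21; the sources used here do not name the programs. Per the file headers, expected counts and TPM fill the deposited gene tables and alignment-made transcript tables, while the FASTQ-made ones have estimated counts and TPM, from 6, 4 and 4 FASTQ files in replicates 1, 2 and 3. The deposited transcript tables also give each transcript's percent of its gene, recomputed here from TPM. Entries that are not GENCODE genes made up 0.178, 0.107 and 0.115% of counts in replicates 1, 2 and 3 and were left out.

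The members and lists were chosen with earlier results of these data known. Levels are the deposited TPM as mean and SD (n = 3). Expected counts were scaled by TMM in edgeR 4.0.16 (R 4.3.3, factors 0.982, 1.03 and 0.992, from 11992 genes kept by filterByExpr). DESeq2 1.42.0 size factors (0.735, 1.19 and 1.16) were an alternative. Counts were rounded to whole numbers to obtain the factors, which were then applied to the unrounded counts. With 1 group there is no contrast, so no test across genes was run. Intervals (exact Poisson) and the floor of 3 counts cover counting error only. Named genes are the 10 members, the 3 genes of each pathway list with the highest mean TPM, list genes with 0 counts, genes in the ratios, the 3 genes nearest to Fos, Jun and Atf3 (1 of those for Jun is not reported here), and transcripts with 10% or more of a member; Prdx2, Junos, Gm11175, Ccdc85b, Egr1, Btg2, Mef2c and the cell type markers were named after their values were seen. Ddit3, on the partner list, was not analysed here. Motifs and shared 31-base stretches were counted in GENCODE and RefSeq sequences by script (Python 3.11.15), and the counting of ranges was tested on simulated data. Alternatives were the FASTQ tables, undivided counts, other thresholds, scalings and pseudocounts, and leaving out each replicate.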

Additional observations from a re-analysis of the deposited data

How the results depend on the processing

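None of the 11 ratios changed the sign of its mean under the alternatives run. The number of members at 1 TPM in all libraries stayed at 8 without any 1 replicate. The number with a 2-fold range was 1, ranged from 0 (without replicate 2) to 1 when 1 replicate was left out, and rose to 3 with no filter on mean CPM, by construction through low-count genes. Expected counts not divided by length, which favour long transcripts, gave log2 ratios of 1.08 for Junb to Jun, -0.32 for Jun to Jund, -0.047 for Fosl2 to Fos, -1.45 for Batf2 to Batf, 2.63 for Atf3 to Jdp2 and -4.45 for the FOS to the JUN family, with shares of 1.92% for the FOS family, 40.6% for the JUN family and 57.4% for the ATF and BATF members. On those counts single libraries did turn: Fosl2 exceeded Fos in replicates 1 (212 against 182) and 3 (300 against 163), and Jun exceeded Jund in replicate 2 (3823.95 against 3323). The FASTQ tables gave 0.24 for Junb to Jund, -1.93 for Batf2 to Batf and 2.40 for Atf3 to Jdp2; the cause was not tested. No paired analysis was possible because the labels give 1 group. Depth limits Fosb and Fosl1, with 0 to 29 counts, and 3 libraries limit the precision of every SD.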
